A study of Bos taurus with 2 samples.

Results

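Mucins are heavily glycosylated proteins that coat epithelial surfaces, and glycosyltransferases are the Golgi enzymes that build their sugar chains. Here 56 mucin and glycosyltransferase genes, carried by 112 probes, were compared between the muzzle of 1 dark-muzzle and the muzzle of 1 light-muzzle HanWoo cow. Members were chosen by name alone: a gene belonged if its bovine RefSeq symbol began with MUC or FUT and a digit, or with GALNT, C1GALT, GCNT, B3GNT, B3GALT, B4GALT, MGAT, ST3GAL, ST6GAL or ST8SIA. They were 56 of 9647 genes that could be named on the array, and of 28099 named genes and unmatched accessions in all (43639 probes). Among bovine symbols that fit the rule, 101 in the RefSeq table, 45 had no matched probe and were not analysed here, among them the gel-forming mucins MUC2, MUC5AC, MUC5B and MUC19.

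The 2 muzzle samples came from female cows of the Hanwoo strain, each 30 months old. The muzzle of the light-muzzle cow was yellow and that of the dark-muzzle cow black. RNA from each nose sample was labelled with Cy3 and hybridised to its own 1-colour Agilent bovine array on a shared slide. Each colour is thus represented by 1 animal, so no difference given here has a replicate check, no test was possible, and a difference between 2 cows cannot be told apart from one between colours. In whole tissue, fewer cells of a type and less RNA per cell cannot be told apart either.

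Sugar chains on mucins start when a GALNT enzyme attaches N-acetylgalactosamine to a serine or threonine. Further enzymes then turn this first sugar into a core, branch it, lengthen it with galactose and N-acetylglucosamine, and cap it with fucose or sialic acid. N-glycans, which are built on asparagine, share many of the extending and capping enzymes, and the muzzle of cattle holds nasolabial glands beneath a thick stratified epithelium. No probe, transcript or protein sequence was at hand for these genes, so none is shown.

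The processed signals used below are intensities in arbitrary units. Their 75th percentile was 1144 on the light-muzzle array and 1137 on the dark-muzzle array, so raw signals of a probe can be read almost directly against each other. Each log2 ratio sets the dark-muzzle level against the light-muzzle one, below 0 where the dark-muzzle level is lower, after each array was shifted by that percentile, and "at least 2-fold" means 1 log2 unit. Signals were well above background for 78.8% of the light-muzzle and 81.9% of the dark-muzzle noncontrol spots. All 11 stratified epithelium markers with a matched probe were above background in both cows. No member spot was saturated or marked as an outlier.

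Mucin and glycosyltransferase genes were more often lower than higher in the dark-muzzle cow. Of the 112 probes, 95 were well above background in both cows, 4 in the dark-muzzle animal alone and 3 in the light-muzzle animal alone. The other 10 were above it in neither cow and had no ratio. A ratio or a lower bound on it was thus available for 102 probes, of which 21 were lower in the dark-muzzle cow by 2-fold or more, 5 were higher by as much and 76 lay between, those with a bound included. The 21 lower probes were 20.6% of the members, against 7.17% of all 36631 probes with a ratio. The 5 higher probes were 4.90% of the members, against 9.76% of all probes.

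At gene level, where the ratios of a gene's probes were averaged, 52 of the 56 genes had a value. Of these, 10 were at least 2-fold lower (19.2%, against 6.47% of the 8914 named genes with a value) and 2 were at least 2-fold higher (3.85%, against 9.86%). The other 40 genes had a ratio or bound within 2-fold, 5 of all 52 being known only by a bound, and 15 genes measured in both cows differed by less than 1.2-fold. The median log2 ratio was -0.22 over the members and 0.065 over all named genes, and 65.4% of the members against 44.8% of the named genes were below 0. GALNT9, GALNTL5, ST8SIA2 and ST8SIA6 were not well above background in either cow.

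**Figure D1:**
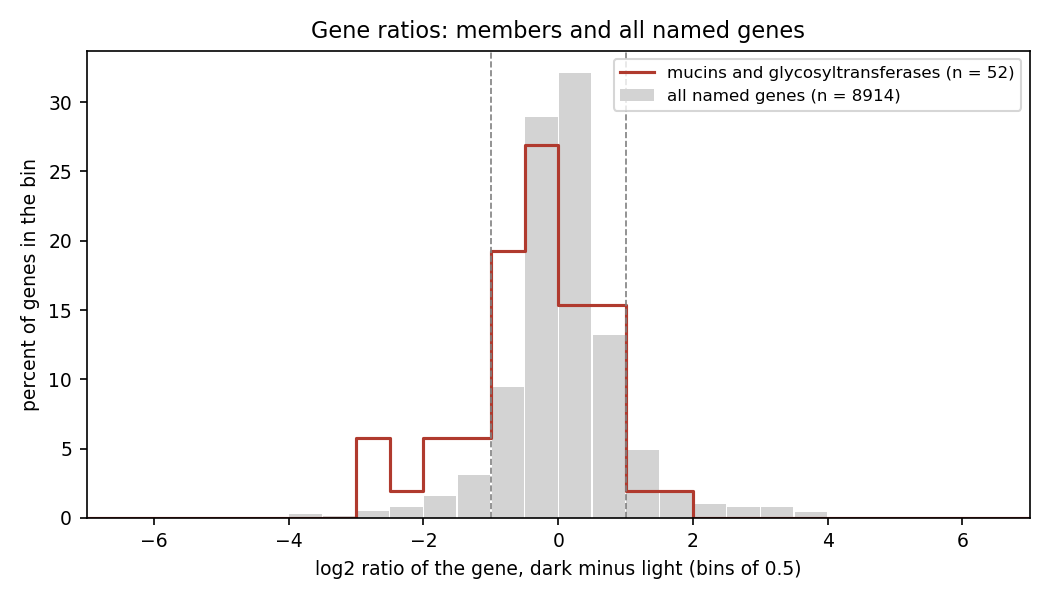
Percent of genes (vertical axis) by gene log2 ratio, dark-muzzle minus light-muzzle cow (horizontal axis, bins of 0.5), for 52 mucin and glycosyltransferase genes (red line) and 8914 named genes (grey bars). Dashed lines mark 2-fold. The red line stands above the grey bars from -3 to -0.5, and by less from 0.5 to 1 and from 1.5 to 2, where it ends. Left of the left dashed line lie 10 genes, and right of the other lie 2.

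**Figure D2:**
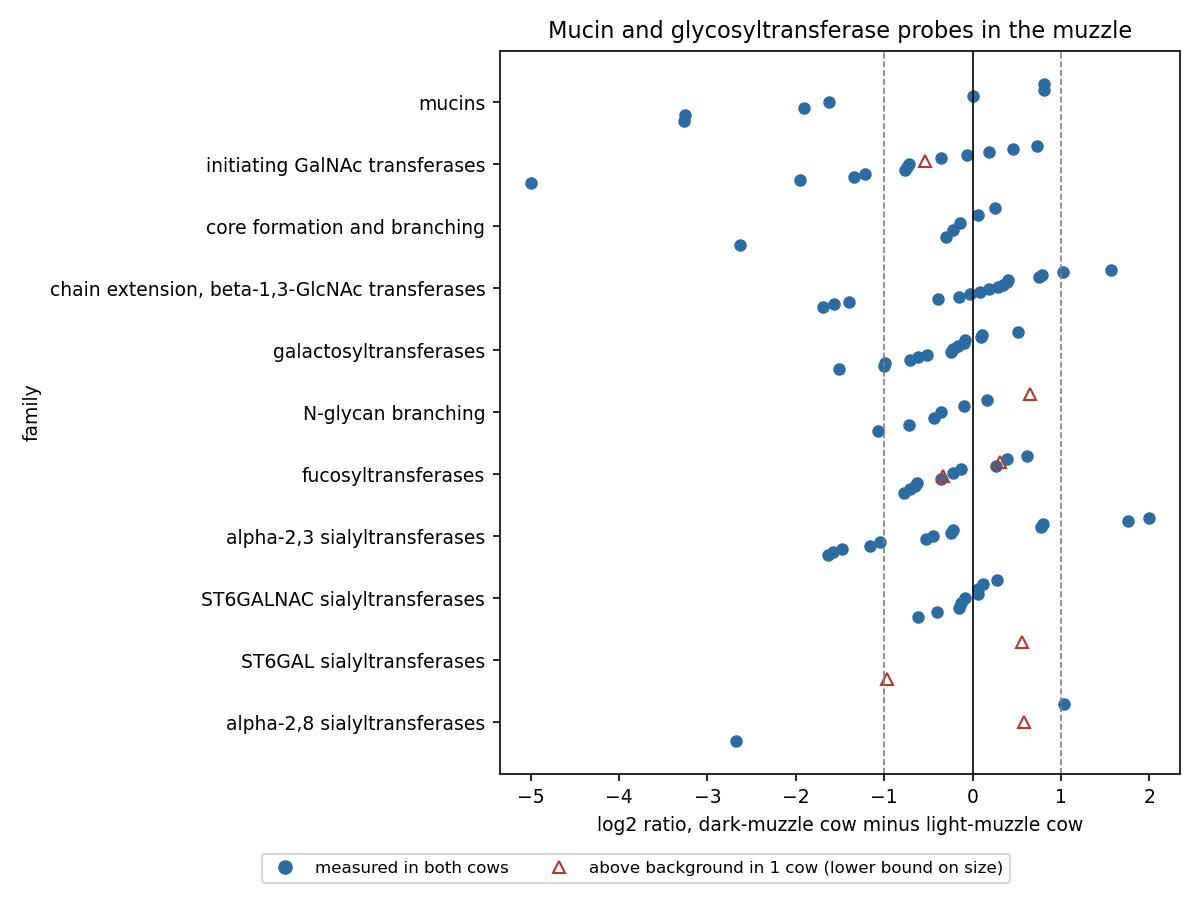
Log2 ratio of each of the 102 member probes with a ratio (dots) or a bound (open triangles), dark-muzzle minus light-muzzle cow, by enzyme family. Dashed lines mark 2-fold; the probes beyond the left line belong to mucins, initiating, core-forming, chain-extending, galactose, N-glycan and sialic acid transferases, while all 12 fucosyltransferase probes lie between the lines.

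Of the 2 mucins with a matched probe, MUC1 was lower and MUC15 somewhat higher in the dark-muzzle cow. MUC1 is a mucin anchored in the apical membrane of gland and other simple epithelia, and it was read by 5 probes that carry the same transcript accession. Its brightest probe had a signal of 6969 in the light and 722 in the dark muzzle, a log2 ratio of -3.26 or a 9.59-fold lower signal. Another probe read 441 and 45.8, again a ratio of -3.26. The remaining probes of MUC1 did not give a single size of difference. Signals of 178 and 47.0 gave a ratio of -1.91, and signals of 269 and 86.8 gave -1.62. The fifth probe read 91.7 in the light and 91.8 in the dark muzzle, a ratio of 0.0090. The mean over the 5 probes was -2.01 (SD between probes 1.36), with 4 of 5 probes at least 2-fold lower.

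MUC15 is a membrane-bound mucin that is also found on the fat globules of bovine milk. Its brighter probe read 1099 in the light and 1918 in the dark muzzle, a ratio of 0.81. The other probe read 139 and 243, also a ratio of 0.81. MUC15 thus stayed below 2-fold with both probes at 1.75-fold, and it ran in the direction opposite to MUC1.

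The initiating GALNT enzymes were the family with the lowest median, -0.98 over 8 genes with a value, and 4 of the 8 were 2-fold or more below the light-muzzle level. With a normexp background correction, the median was -0.63. GALNT12 had 1 probe, with a signal of 1412 in the light and 362 in the dark muzzle, a ratio of -1.96. GALNT1, an isoform with broad tissue expression, read 4687 and 2004, a ratio of -1.22. GALNT5 read 110 and 43.0, a ratio of -1.35 that fell short of 2-fold, at -0.62, with the normexp correction.

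GALNT13, an isoform described mainly in nervous tissue, had the lowest probe ratio of all members, and its probes were far apart. One probe read 11755 in the light and 366 in the dark muzzle, a ratio of -5.00 or a 32.0-fold lower signal. The other read 77.3 and 59.9, a ratio of -0.36. Both probes carry the same transcript accession, and their mean of -2.68 stands for neither of them. Among the remaining isoforms, GALNT4 and GALNT6 had ratios of -0.74 and -0.75, GALNT16 was at 0.058, and GALNT18 was higher at 0.59.

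Core formation split by enzyme. C1GALT1, which makes core 1 by adding galactose, had a ratio of 0.059, and its chaperone C1GALT1C1 had probes between -0.30 and -0.14. GCNT1, a core 2 branching enzyme, was at 0.25. GCNT3, the branching enzyme typical of mucus-secreting epithelia, had a signal of 176 in the light and 28.4 in the dark muzzle, a ratio of -2.63. The dark-muzzle signal lay close to the lowest signal that was well above background there, 20.3. B3GNT6, which makes core 3, was lower in all 3 of its probes. Its signals were 654 and 219, 482 and 148, and 166 and 62.9 in the light-muzzle and dark-muzzle cow. These gave ratios of -1.57, -1.70 and -1.39, with a mean of -1.55 (SD between probes 0.15).

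The other B3GNT enzymes, which extend chains with N-acetylglucosamine, had gene ratios between -0.39 for B3GNT9 and 0.93 for B3GNT3. With B3GNT6 included, the family median was 0.047 over 6 genes. B3GNT3, which extends core 1, had 4 probes that were all higher in the dark-muzzle cow but by different amounts. The brightest read 1083 in the light and 2187 in the dark muzzle, a ratio of 1.02. A probe with 110 and 323 had the largest ratio, 1.56, and the probes with 54.5 and 90.7, and 266 and 345, had ratios of 0.74 and 0.39. Their mean of 0.93 (SD 0.50) fell short of 2-fold. B3GNT2, B3GNT5 and B3GNT8 lay between -0.035 and 0.47.

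**Figure D3:**
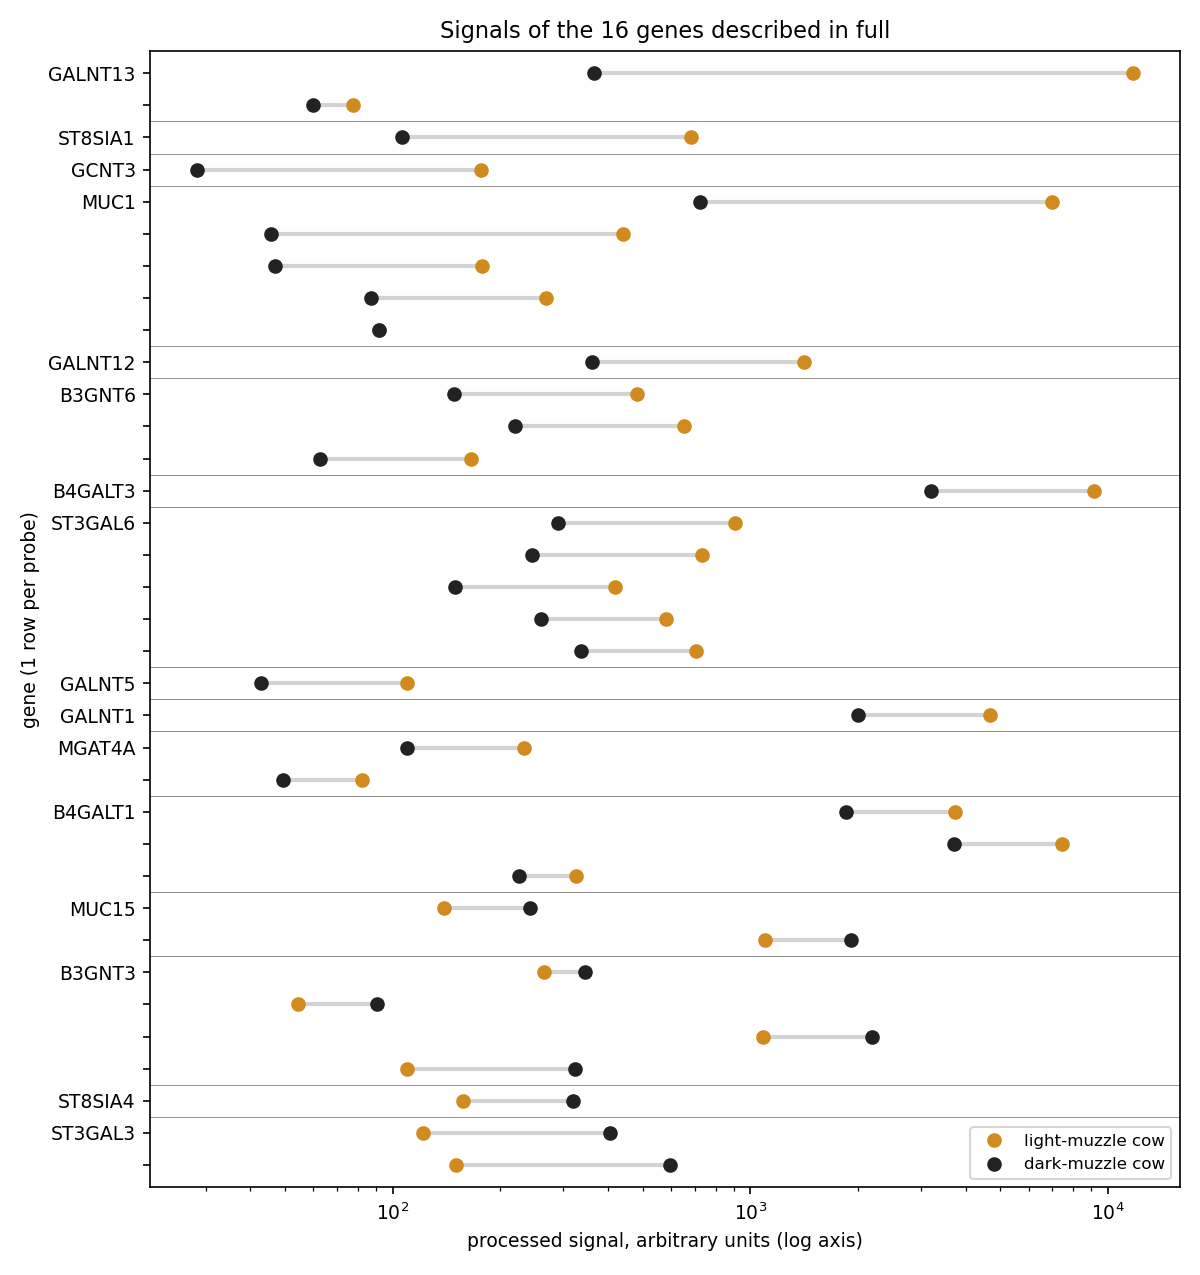
Processed signal (horizontal log axis, arbitrary units) in the light-muzzle cow (orange) and the dark-muzzle cow (black) for every probe, 1 row each, of the 16 genes described in full, ordered by gene log2 ratio. GALNT13 at the top has the widest gap, from 11755 to 366, beside a second probe with almost none; the probes of ST3GAL6 and B3GNT6 are shifted by like amounts; and from MUC15 downward the dark-muzzle signal is the higher one.

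Galactosyltransferases, which add the galactose of chain units, had a median of -0.091 over 7 genes and 1 gene past 2-fold. B4GALT3 read 9157 in the light and 3197 in the dark muzzle, a ratio of -1.51 from a single bright probe. B4GALT1, which also forms the catalytic part of lactose synthase, was close to the 2-fold line. Its 3 probes read 7430 and 3721, 3742 and 1855, and 327 and 226, so that the dark-muzzle signal was 1.98-fold, 2.01-fold and 1.44-fold lower. The mean log2 ratio of -0.84 left the gene within 2-fold. The other 5 genes lay between -0.52 for B4GALT4 and 0.51 for B3GALT2.

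Of the MGAT enzymes, which branch N-glycans, MGAT4A was the lowest. Its probes read 233 in the light and 110 in the dark muzzle (ratio -1.08), and 82.0 and 49.4 (ratio -0.72), with a mean of -0.90. MGAT4B was at -0.40, and MGAT1, which starts the formation of complex N-glycans, was at 0.032.

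None of the 8 fucosyltransferase genes passed 2-fold, with ratios and bounds from -0.78 for FUT4 to 0.61 for FUT1, with a median of -0.39 that moved between -0.63 and -0.21 under other settings. FUT2, which makes the H antigen in secretions, read 1952 and 1251 in the light-muzzle and dark-muzzle cow, a ratio of -0.63. FUT1, which makes the same structure and is best known from red blood cells, read 218 and 331. FUT8, which adds the core fucose of N-glycans, had 4 probes between -0.36 and 0.38. FUT7 and FUT9 were well above background in 1 cow each and had only bounds, 0.31 and -0.34, so their differences may be larger.

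Sialyltransferases included genes in both directions. The alpha-2,3 enzymes ST3GAL3 and ST3GAL6, both of which cap galactose with sialic acid, had opposite ratios. ST3GAL3 was higher in the dark-muzzle cow, with signals of 151 in the light and 597 in the dark muzzle for 1 probe (ratio 1.99). Its other probe read 121 and 406 (ratio 1.75), and the mean of 1.87 was the highest of all member genes. ST3GAL6 was lower in all 5 of its probes. Its light-muzzle signals ran from 418 to 904 and its dark-muzzle signals from 149 to 337. The ratios were -1.63, -1.58, -1.48, -1.16 and -1.05, with a mean of -1.38 (SD 0.26). The other 4 genes of this family lay between -0.53 for ST3GAL1 and 0.78 for ST3GAL2.

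Among alpha-2,8 sialyltransferases, which add sialic acid to sialic acid, ST8SIA1 was lower and ST8SIA4 higher. ST8SIA1, the GD3 ganglioside synthase, read 683 in the light and 106 in the dark muzzle, a ratio of -2.68. ST8SIA4, a polysialyltransferase, read 157 and 320, a ratio of 1.03 that is just past 2-fold and was 0.77 with the normexp correction. Each rested on 1 probe. ST6GALNAC2, ST6GALNAC4 and ST6GALNAC6, which act on the first N-acetylgalactosamine or on sialylated core 1 chains and gangliosides, lay between -0.21 and -0.038. The ST6GALNAC6 value of -0.044 averages 4 probes that differ. Its brightest probe read 2368 in the light and 1531 in the dark muzzle, a ratio of -0.62. Its other probes were dim, with ratios between 0.055 and 0.28. ST6GAL1, the main alpha-2,6 enzyme of N-glycans, and ST6GAL2 were above background in 1 cow each, with bounds of 0.56 and -0.97.

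Probes of a gene were mostly close to each other. In 27 member genes with at least 2 probes measured in both cows, the median SD between probes was 0.19, against 0.18 over 7661 transcripts, and in 18 of them all probes had the same sign. The probes spanned less than 2-fold in 24 genes and more in 3, which were MUC1, GALNT13 and B3GNT3. Among the genes past 2-fold, GALNT1, GALNT5, GALNT12, GCNT3, B4GALT3, ST8SIA1 and ST8SIA4 had 1 probe each. They are not among the 27, so their ratios have no such check. The spot error that Feature Extraction gives, carried over to the ratio of a probe, ran from 0.20 to 0.43 on the log2 scale with a median of 0.21. It is the software's estimate for 1 spot per array and was nearly the same, 0.20, for the bright probes. It is not a spread measured between repeat spots or between cows.

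The counts for the steps that supply the sugars, and for the lists after them, stand beside all named genes with a value. Of these, 6.47% were at least 2-fold lower and 9.86% at least 2-fold higher. Of 23 measured genes for nucleotide sugar synthesis, 8 were at least 2-fold lower and 1 was higher, with a median of -0.58 (0.065 over all named genes). NANS, which makes sialic acid, read 23328 in the light and 7484 in the dark muzzle, a ratio of -1.63. GFPT1, the entry enzyme of the hexosamine pathway, had 3 probes between -1.61 and -1.49. GMDS, the first enzyme of GDP-fucose synthesis, had a ratio of -1.33, and PGM3, an enzyme of the hexosamine pathway, had -1.28. GFPT2, a paralog of GFPT1, ran the other way, with signals of 289 and 631 for its brighter probe and a gene ratio of 1.30. One of the 8 lower genes, GALT, passed 2-fold through 1 of its 4 probes (-4.08, against -0.36 to -0.32 for the others); it was singled out after its values were seen.

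Transporters of nucleotide sugars and sulfate donors held 9 measured genes, with a median of -0.43, and only SLC35D1 passed 2-fold, at 1.07. Its 1 probe read 26.1 in the light and 54.7 in the dark muzzle. The light-muzzle signal lay close to the lowest one well above background there, 20.8. Among 18 other glycan transferases and sialidases, 2 were lower and none was higher, with a median of -0.42. ABO, the blood group transferase, had a ratio of -2.37, with signals of 4601 and 884 for its brighter probe. UGT8, which makes galactosylceramide, had 3 probes between -2.40 and -1.94. Of 12 glycan sulfation genes, 2 were lower and 2 higher. CHST9, a sulfotransferase acting on N-acetylgalactosamine, read 221 and 29.9, a ratio of -2.88, and GAL3ST4 was at least 3.97-fold lower. CHST4, which sulfates N-acetylglucosamine, had a mean ratio of 1.25 with probes between -0.10 and 2.69, and GAL3ST1 was at least 3.25-fold higher. None of the 18 measured genes for transfer and trimming of N-glycans passed 2-fold, and their gene ratios lay between -0.80 and 0.55. One of them, PRKCSH, had probes on both sides of 0, so its mean of 0.36 stands for none of them: its brightest probe read 16568 and 101561, a ratio of 2.62, and the others had -0.82 and -0.73. It too was named after its values were seen.

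Markers of gland cells moved in the same direction as the lower members. Of 16 mucous cell markers listed, 6 had a matched probe and 5 had a value. All 5 were lower by 2-fold or more in the dark-muzzle cow, with a median of -3.12. TFF3, a peptide secreted with mucus, had a ratio of -3.61, and its brighter probe read 83108 in the light and 6781 in the dark muzzle. SPDEF, a transcription factor of mucous cells, was at -3.12, and AGR2, which helps mucins fold, at -2.90. BPIFB1, a secreted protein of mucous cells, was at -3.19. The summed level of the mucous list, in units of each array's 75th percentile with the brightest probe of each gene, was 103 in the light and 8.51 in the dark muzzle. Of 10 serous gland markers with a value, 7 were lower and 1 was higher (median -3.05), and their summed level was 432 and 32.9. Of 10 markers of simple gland epithelium, 9 were lower (median -2.20), with summed levels of 206 and 90.4. Most of that sum was KRT19, the gene within 2-fold (-0.62), and the other 9 summed to 93.0 and 17.3. All mucous and simple gland markers with a value were still above background in the dark-muzzle cow, whereas TFF2 and the serous markers ODAM and SLPI were above it in neither cow.

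Markers of other cell types differed by list. Over all named genes, 9.86% were higher and 6.47% lower by 2-fold or more, and the fibroblast and leukocyte calls are too few to read against these shares. All 16 skeletal muscle markers were higher by 2-fold or more in the dark-muzzle cow (median 3.33), with summed levels of 387 and 2154. Of 11 stratified epithelium markers 4 were higher, none lower and 7 within 2-fold (median 0.35), with summed levels of 907 and 1336. That sum rose mostly through KRT10, which read 138427 and 409786, and KRT4, whose brightest probe read 2885 and 121452. KRT14, its largest gene, read 416913 and 399035 with its brightest probe. Melanocyte markers were higher in 5 of 9, with summed levels of 3.40 and 6.09 (2.47 and 3.07 without PMEL). Of 9 endothelial markers 3 were higher (15.8 and 29.9, or 9.63 and 14.2 without CLDN5). Of 9 fibroblast markers 1 was lower (239 and 149). Of 13 leukocyte markers 2 were lower, with a list median of -0.19. The summed leukocyte level of 60.0 and 28.7 differed through JCHAIN, the joining chain of secreted antibodies, and the other 12 genes summed to 20.5 and 21.0. The part of these cell type differences in the ratios of the mucins and glycosyltransferases was not tested.

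**Figure D4:**
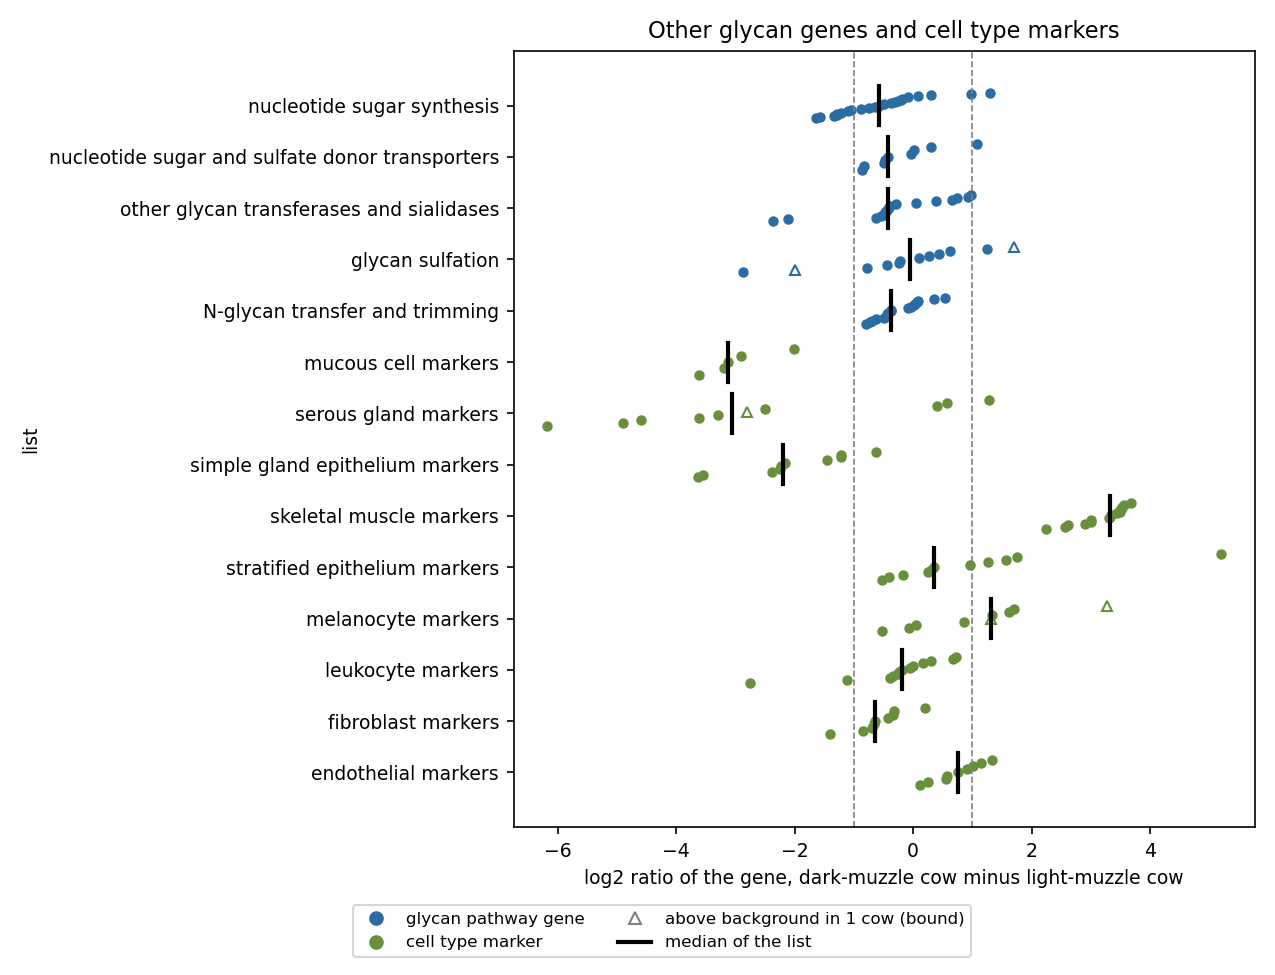
Gene log2 ratio, dark-muzzle minus light-muzzle cow (horizontal axis), for 5 lists of other glycan genes (blue) and 9 lists of cell type markers (green), with 1 point per gene, open triangles for bounds and a black bar for the median of each list. Medians of the glycan lists lie between -0.58 and -0.060, those of the mucous, serous and simple gland lists between -3.12 and -2.20, and that of skeletal muscle at 3.33.

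Other ways of processing the arrays kept the sign of every gene described in full. Over 13 alternatives for normalization, background, filters and the choice of probe, none of the 16 genes changed sign. Several of these settings could not change it. All probes of these genes were above background in both cows and none was an outlier. Dropping the dim filter, requiring both cows, raising dim signals, keeping outliers and averaging every probe therefore returned the same values. The other centring choices and the deposited table moved every ratio by nearly the same small amount. Of the 12 genes past 2-fold, 10 stayed past it throughout, whereas GALNT5 and ST8SIA4 fell short of it with normexp, as given above. GCNT3 and GALNT5 passed the filter for probes 4-fold above the detection limit by their light-muzzle signals alone, so that filter does not check their ratios. The same holds for the MUC1 probes with 441 and 45.8, and 178 and 47.0, and for the B3GNT6 probe with 166 and 62.9. The B3GNT3 probe with 54.5 and 90.7 passed by its dark-muzzle signal alone. For MUC1, B3GNT6 and B3GNT3 that filter is thus a check in part only. The widest ranges belonged to GALNT13 (-5.00 to -2.47), whose 2 probes differ, to MUC1 (-3.26 to -1.50), and to GCNT3 (-2.83 to -1.19), whose dark-muzzle signal is dim.

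**Figure D5:**
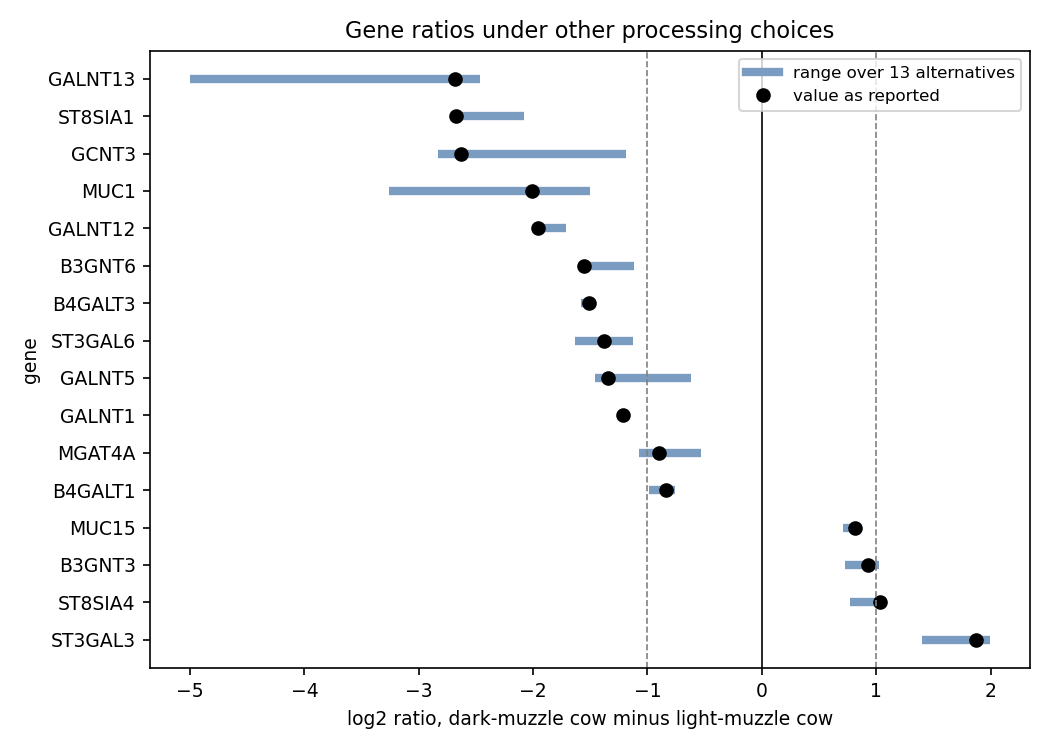
Log2 ratio of the 16 genes described in full (black dots, value as reported) with the range over 13 processing alternatives (blue bars), dark-muzzle minus light-muzzle cow; dashed lines mark 2-fold. No bar crosses 0, and only those of GALNT5, MGAT4A, B3GNT3 and ST8SIA4 cross a 2-fold line.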

How the data were processed

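The muzzle RNA of 1 light-muzzle and 1 dark-muzzle cow was compared, with groups taken from the labelled tissue colour. The authors deposited 1 scanner file per array from Agilent Feature Extraction, version 10.7.3.1 per the submitters' processing notes, whose processed signal is an intensity from which the software had subtracted the background. A value table on the log2 scale, which the authors made in GeneSpring per the study's methods, was deposited as well. Its scale and centring are not stated in the sources used here. Set against the scanner files, the table held log2 processed signals centred on the 75th percentile of their array, within 0.01 for 43625 of 43639 probes and for all 112 member probes, and its column medians were -2.47 (light-muzzle) and -2.45 (dark-muzzle). It served as an alternative only.

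From the processed signal, log2 levels were shifted by the 75th percentile of noncontrol spots of each array. Outlier spots (13 on each array) were left out, and a probe's ratio is the dark-muzzle minus the light-muzzle level. A probe well above background on 1 array only was given a lower bound, set by the higher of its own signal and the lowest signal well above background (20.8 on the light-muzzle and 20.3 on the dark-muzzle array). A probe above background on neither array had no ratio. A gene's value is the mean over its probes measured on both arrays, or else its largest bound. The scanner files hold no gene names here, so symbols came from the accession of each probe through the RefSeq table of the assembly ARS-UCD2.0, which named 20587 probes. No coordinates were used, and the aligned position of the probes is not given in the sources used here.

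Named in full were every mucin, every member gene with a probe past 2-fold, and every member gene whose probes differ by at least 2-fold, 16 genes in all. Of the other lists, up to 4 genes in each direction past 2-fold were named. The members, the 14 lists and these rules were chosen with earlier results of these data known, so counts over them are descriptions, not tests. With 1 array per group there is no p-value, and precision is limited by there being 2 arrays.

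The alternatives were quantile normalization, loess with a span of 0.3, centring on the 50th percentile or not at all, normexp on the median pixel signal with an offset of 50, other treatments of dim and outlier spots, the deposited log2 table, thresholds of 1.5-fold and 3-fold, and other ways to pick probes. Python 3.11.15, pandas 2.3.3, R 4.3.3 and limma 3.58.1 were used, and the calculation was tested on simulated data. Real-time PCR and in situ hybridization of the study were not analysed here.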

Additional observations from a re-analysis of the deposited data

How the results depend on the processing

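No count or median changed direction, and 118 of 134 recomputed counts and medians, and 191 of 208 recomputed gene ratios, stayed close to the reported value. Many of the settings return the same or nearly the same gene ratios by construction, so the 191 of 208 says little about precision. The counts followed the threshold: at 1.5-fold, 14 member probes were higher and 34 lower, and at 3-fold, 2 were higher and 10 lower. Among genes these counts were 7 and 18 at 1.5-fold, and 1 and 5 at 3-fold. With normexp background correction, 15 probes and 9 genes were lower in place of 21 and 10, and 3 probes and 1 gene were higher in place of 5 and 2. The 15 lower probes are among the 118 values counted as close. Under the same correction, the median log2 ratio of initiating GalNAc transferases was -0.63 in place of -0.98. Without a filter on dim probes that median was -0.74. For fucosyltransferases, the median of -0.39 was -0.63 under quantile normalization, -0.60 under loess, -0.21 with normexp and -0.63 for probes at least 4-fold above the detection limit. The last of these left out dim probes by construction, and otherwise the cause was not tested. Probes 4-fold above the detection limit and the mean over every probe were alternatives chosen after seeing the data. Symbols from the gene-name column of the scanner files alone were not run, since the files used here hold no such column. Quantile normalization lowered the share of higher calls among all probes past 2-fold from 57.7% to 49.7%, and leaving out the dim filter raised it to 65.3%. No paired analysis was possible because each group has 1 array. Member genes near the detection limit, such as GCNT3 and GALNT5, are the least precise.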
